A study of Mus musculus with 6 samples.

Results

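AP-1 and immediate early genes are described here across 6 RNA sequencing libraries of mouse epidermis. The 10 genes were taken by symbol: Fos, Fosb, Fosl1, Jun, Junb, Egr1, Egr2, Egr3, Atf3 and Nr4a1. All 10 were found among the 47729 genes of the deposited table, and all 10 were among the 17023 genes whose counts were high enough to be tested. The libraries came from wild-type C57BL/6 mice whose skin received a gel with AKBA (3 libraries) or a control gel without it (3 libraries). AKBA is the usual short name of acetyl-11-keto-beta-boswellic acid, a triterpenoid of frankincense resin. The control libraries also carry the letters IMQ in their descriptions, which the labels do not spell out, and the sources used here do not give whether either group had another treatment. They give no age, sex, dose or time of treatment, and do not tie each library to its own mouse. The p-values therefore cover only how far these libraries differ, which may be technical.

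AP-1 is a pair of bZIP proteins, usually one FOS protein and one JUN protein, that binds DNA and switches on genes of growth, migration and stress. Fos, Fosb, Jun, Junb, Atf3, the EGR zinc finger factors and the orphan nuclear receptor Nr4a1 are immediate early genes: growth factors, wounding, ultraviolet light or stretching of the tissue raise their transcripts quickly through MAP kinases, SRF and CREB, and the transcripts decay quickly too. In epidermis, AP-1 proteins take part in wound repair, proliferation, terminal differentiation and inflammation.

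The libraries held 19066045 to 22760432 counts, so that 3 counts correspond to 0.132 to 0.157 CPM. CPM is the unit in which counts are divided by library size. These values use the total counts, whereas the levels below use library sizes after TMM scaling. This floor covers counting error only. Markers of basal and suprabasal keratinocytes were high, at a sum of 11071 to 33169 CPM over 7 basal markers. The 7 suprabasal markers summed to 34004 to 62648 CPM with AKBA gel and to 25289 to 38256 CPM with control gel, with overlap. Their median log2 fold change was 0.50. The 8 fibroblast markers summed to 19227 to 35815 CPM and the 8 skeletal muscle markers to 3927 to 7430 CPM, so markers of dermis and muscle were present beside those of epidermis. In such bulk libraries fewer cells of a type and less RNA per cell cannot be told apart. Of the 10 cell type lists examined, macrophage markers alone had sums that did not overlap between the groups, at 1529 to 1661 CPM (AKBA gel) against 1704 to 2346 CPM (control gel). Their part in the results below was not tested. Of the 8 macrophage markers 4 were lower in every AKBA library than in every control library, against 9.1% of all genes tested, and none of the 8 was at 0.

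Most of these 10 genes were lower with AKBA gel, and Egr2 was higher. Fos, Fosb, Fosl1, Junb, Atf3 and Nr4a1 were lower in every AKBA library than in every control library. Egr2 was higher in every AKBA library, and Jun, Egr1 and Egr3 overlapped between the groups. Among the 17023 genes tested, 9.1% lay lower in every AKBA library and 9.28% higher, against 6 and 1 of the 10 genes here. None of the 10 passed the main test, edgeR's quasi-likelihood test with Benjamini-Hochberg adjustment over all genes, in which 0% of genes were called. At an unadjusted p below 0.05 that test gave 6 of the 10 as lower, against 7.01% of all genes, and 1 as higher, against 6.45%. The DESeq2 Wald test, an alternative, called Fos, Fosb, Fosl1 and Nr4a1 lower, where it called 1.17% of the genes with an adjusted p lower, and Egr2 higher, where it called 0.513% higher. edgeR's exact test, added after seeing the data, called the same 5 genes, against 0.846% of genes lower and 0.452% higher.

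**Figure D1:**
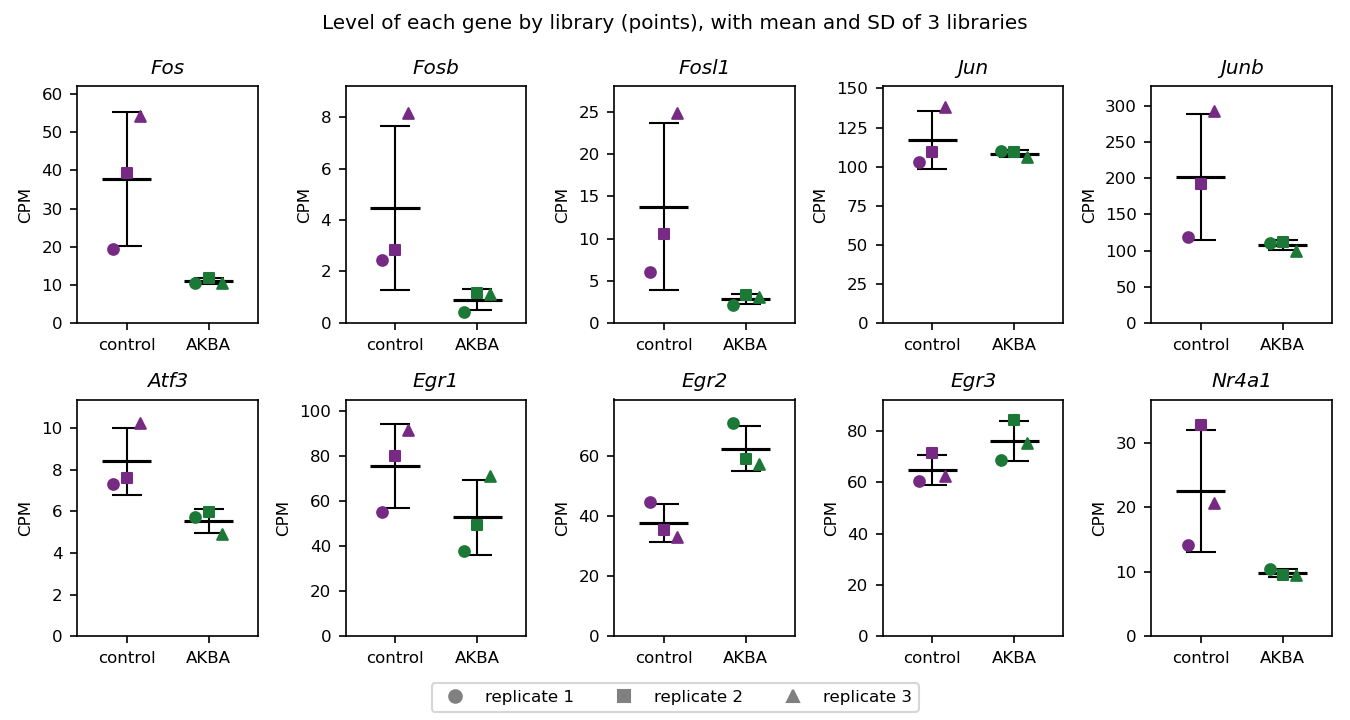
Level of each of the 10 genes in CPM after TMM scaling (vertical axes, linear from 0) in the control gel and AKBA gel libraries. Points are libraries, with the marker shape giving the replicate number, and bars are the mean and SD of 3 libraries. For Fos the AKBA libraries lie between 10.4 and 11.9 CPM, while the control libraries lie between 19.3 and 54.4 CPM.

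Fos (chromosome 12, 85473890 to 85477273, GRCm38), the founding FOS subunit, stood at 10.5, 11.9 and 10.4 CPM in AKBA replicates 1 to 3. In control replicates 1 to 3 it stood at 19.3, 39.4 and 54.4 CPM. The AKBA libraries lay close together, and the lowest control library was 1.63 times the highest AKBA library. The means were 10.9 ± 0.813 and 37.7 ± 17.6 CPM (SD, n = 3 each), a 3.46-fold lower level with AKBA gel (log2 fold change -1.79 ± 0.34, SE). The adjusted p was 0.331 by edgeR and 0.000118 by DESeq2. DESeq2 called Fos and Fosl1 whichever single library was left out. Fos alone of the 10 was called after removing AKBA replicate 2 together with control replicate 3 (DESeq2 adjusted p = 0.0158).

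Fosl1 (chromosome 19, 5447547 to 5455946) encodes FRA-1, a FOS protein without the strong activation domain of FOS that is known from migrating and wounded keratinocytes. It was at 2.16, 3.35 and 3.07 CPM with AKBA gel and at 6.00, 10.5 and 24.9 CPM with control gel. The 3 control libraries differed 4.14-fold among themselves, which was the widest spread in either group among the 10 genes. The mean was 4.81-fold lower with AKBA gel (log2 fold change -2.27 ± 0.51, adjusted p 0.331 by edgeR and 0.000789 by DESeq2). Without control replicate 3 the log2 fold change was -1.53, and DESeq2 still called it lower (adjusted p = 0.0155). With AKBA replicate 2 left out as well, DESeq2 did not call it (0.0567). Fosl1 shares 2767 bases with Ccdc85b, a gene on the opposite strand. The mean of Ccdc85b was 27.1 ± 5.66 CPM after AKBA gel, beside 20.2 ± 2.30 CPM in controls (SD, n = 3 each). The part of Ccdc85b in the Fosl1 difference was not tested. The sources used here do not state whether the counting used the strand, so reads of the shared stretch cannot be assigned.

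Fosb (chromosome 7, 19302696 to 19310051) encodes another FOS protein and was the scarcest of the 10. It had 9, 22 and 26 counts in AKBA replicates 1 to 3, or 0.442, 1.17 and 1.11 CPM. In control replicates 1 to 3 it had 51, 65 and 170 counts, or 2.43, 2.84 and 8.14 CPM. The groups were apart, with 1 control library far above the others. The log2 fold change was -2.29 ± 0.57 (adjusted p 0.331 by edgeR, 0.00891 by DESeq2), and it was -1.53 without control replicate 3, where DESeq2 no longer called it (0.22). DESeq2 did not call it without AKBA replicate 1 (adjusted p = 0.127) or AKBA replicate 2 (0.0593) either.

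Junb (chromosome 8, 84974484 to 84978718), the JUN protein that often opposes JUN and is highly active in epidermis, had the highest level per length of the 10. It stood at 111, 112 and 99.9 CPM with AKBA gel and at 119, 193 and 294 CPM with control gel. Control replicate 1 lay just above the AKBA libraries, at 1.07 times the highest of them. The log2 fold change was -0.91 ± 0.29 (adjusted p 0.334 by edgeR, 0.0672 by DESeq2), and without control replicate 3 it was -0.54. The last 351 bases of Junb overlap Prdx2, an abundant peroxiredoxin gene of the opposite strand, which was at 226 ± 32.6 against 184 ± 16.4 CPM (SD, n = 3 each) and overlapped between the groups.

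Jun (chromosome 4, 95049034 to 95052222), the founding JUN subunit, differed by less than the spread between libraries. It was at 110, 109 and 106 CPM with AKBA gel and at 103, 109 and 138 CPM with control gel. The log2 fold change was -0.11 ± 0.13 (edgeR adjusted p = 0.745), and it was 0.03 without control replicate 3. The antisense gene Junos shares 689 bases with Jun and had 51 to 79 counts.

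Atf3 (chromosome 1, 191170296 to 191218039), a bZIP factor induced by many stresses that pairs with JUN proteins, was low in every library. It stood at 5.74, 5.95 and 4.90 CPM with AKBA gel and at 7.33, 7.60 and 10.3 CPM with control gel. The groups were apart by a narrow gap of 1.23-fold. The log2 fold change was -0.60 ± 0.19 (adjusted p 0.336 by edgeR, 0.174 by DESeq2).

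Nr4a1 (chromosome 15, 101254269 to 101274795), an orphan nuclear receptor also called NUR77, was low in the AKBA libraries too. It was at 10.5, 9.57 and 9.46 CPM with AKBA gel and at 14.1, 32.8 and 20.7 CPM with control gel. The AKBA libraries differed 1.11-fold among themselves and the control libraries 2.32-fold, and here control replicate 2 was the highest. The log2 fold change was -1.20 ± 0.29 (adjusted p 0.331 by edgeR, 0.0099 by DESeq2), a 2.29-fold lower mean with AKBA gel. By DESeq2 its adjusted p was 0.0991 or 0.147 when AKBA replicate 1 or 2 was removed, and 0.116 or 0.063 when control replicate 2 or 3 was, so that each of these 4 removals ended the call. Its paralogs were scarcer. Nr4a2 was at 3.34 ± 0.212 against 5.57 ± 2.68 CPM and lower in every AKBA library, whereas Nr4a3 was at 3.41 ± 1.48 against 6.58 ± 4.92 CPM with overlap (SD, n = 3 each).

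The EGR genes, zinc finger factors induced through SRF and MAP kinases, went in different directions. Egr2 (chromosome 10, 67535475 to 67542188), a regulator of nerve myelination that is also expressed in hair follicles, was at 70.9, 58.9 and 57.2 CPM with AKBA gel and at 44.7, 35.2 and 32.9 CPM with control gel. Every AKBA library was at least 1.28 times the highest control library. The log2 fold change was 0.73 ± 0.15 (adjusted p 0.331 by edgeR, 0.0125 by DESeq2), a 1.66-fold higher mean. The same 4 removals ended its DESeq2 call as for Nr4a1, with adjusted p of 0.2 and 0.114 for the AKBA libraries and 0.155 and 0.148 for the control libraries. Egr1, the EGR factor induced most widely, was at 38.02, 49.4 and 70.9 CPM with AKBA gel and at 54.9, 80.0 and 91.6 CPM with control gel. The groups overlapped because AKBA replicate 3 lay above control replicate 1, and the log2 fold change was -0.52 ± 0.26 (edgeR adjusted p = 0.441). Egr3 (chromosome 14, 70077203 to 70082614), a target of antigen receptor and growth factor signalling, was at 68.8, 84.2 and 75.5 CPM with AKBA gel and at 60.6, 71.4 and 62.4 CPM with control gel. It overlapped too, with a log2 fold change of 0.23 ± 0.12 (edgeR adjusted p = 0.44). Egr4 had 0 to 2 counts in each library and was not tested.

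**Figure D2:**
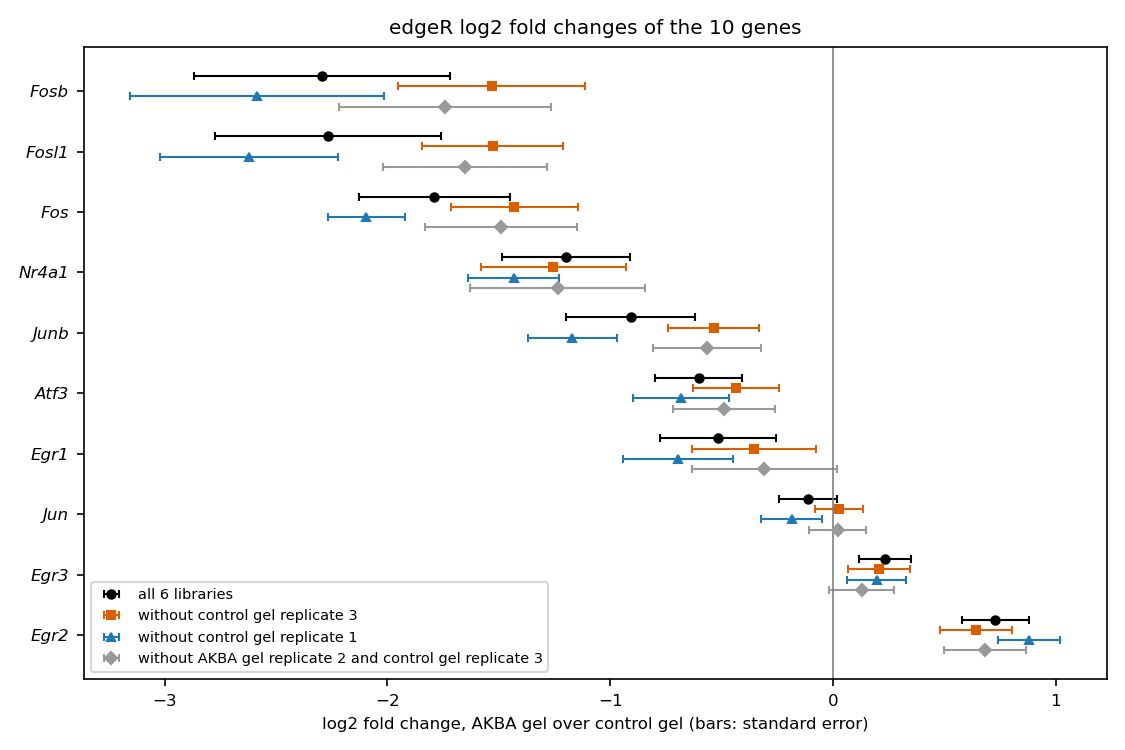
Log2 fold changes of the 10 genes by edgeR (horizontal axis, AKBA gel over control gel) with standard errors, for all 6 libraries and with 1 or 2 libraries left out. Fosb, Fosl1 and Fos lie farthest below 0 in each of the 4 series, and Egr2 lies above 0 in each. Without control gel replicate 3 the value of Fosl1 moves from -2.27 to -1.53.

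The authors' deposited table called 4 of the 10 genes, all lower with AKBA gel, against 0.331% of its 47729 genes called lower and 0.241% called higher. In the authors' deposited table these were Fos (log2 fold change -1.74, adjusted p 9.63e-06), Fosl1 (-2.16, 0.000276), Fosb (-1.70, 0.00352) and Nr4a1 (-1.16, 0.00542). The authors' deposited table gave Egr2 (0.76, adjusted p 0.0181) and Junb (-0.88, 0.0481) an adjusted p below 0.05 without calling them. All 273 genes called in the authors' deposited table differed by at least 1 on the log2 scale. Of its 47729 genes only 28595 had any count in the 6 libraries, and 17023 had enough to be tested here. The shares of 0.331% and 0.241% therefore run over many genes without counts, whereas all 10 genes here had counts.

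The control libraries differed more among themselves than the AKBA libraries in 8 of the 10 genes. Control replicate 3 was the highest control library for 7 of the 10 genes and control replicate 1 the lowest for 9. How often this order held over all genes was not counted. The first principal component of all genes tested, the axis of greatest variation between libraries, held 42.1% of the variance. Control replicates 1 to 3 lay on it at -0.0812, 32.8 and 46.2, and AKBA replicates 1 to 3 at -26.3, -43.8 and -8.74. On this axis control replicate 1 was thus the control library nearest to the AKBA libraries. For Fos the highest control library was 2.81 times the lowest, against 1.14 times within the AKBA group. For Junb these ratios were 2.46 and 1.12. Over 12261 genes with a mean of at least 5 CPM, the median ratio of highest to lowest library was 1.27 in the control group and 1.24 in the AKBA group. The ratio in the control group was above that median for 9 of the 10 genes, all but Egr3 (1.18), and Fosb itself lies below this minimum level. Control replicate 3 also had the highest sum of 7 basal keratinocyte markers, at 33169 CPM against 11071 to 21159 CPM in the other libraries. The sum of 7 neutrophil markers, of which Ly6g was at 0, was highest there as well, at 3368 CPM against 302 to 1071 CPM. Of these 7, only 4 had counts high enough to be tested, and S100a9 and S100a8 were the most abundant. Whether this sum follows the number of neutrophils was not tested. Both sums overlapped between the groups, and their part in the levels of the 10 genes was not tested.

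Profiles across the 6 libraries were compared by the root mean square difference of log2 CPM, each gene centred on its own mean. This is a description over 6 libraries that share their depth and their groups. The value is small where a pair of genes went up and down by similar amounts, and also where both varied little. Fosb and Fosl1 differed by 0.28, and Fosl1 was the nearest of 12261 genes to Fosb. Fos and Fosl1 differed by 0.33, and Fosl1 ranked 13 among 12260 genes in nearness to Fos. The genes nearest to Fos were Gjb2, the gap junction protein connexin 26 (0.22), and Phlda1 (0.25), and Gjb2 was the nearest to Fosl1 too (0.27). Junb was nearest to the nucleotide receptor gene P2ry2 (0.08), and Nr4a1 to the branched-chain aminotransferase gene Bcat1 (0.12). Egr2 was nearest to Muc15 (0.06) and lay 1.62 from Fosb, the largest difference between any pair of the 10. Within the 10, Jun was closest to Egr3 (0.25), and Egr3 ranked 6992 among 12260 genes in nearness to Jun. Jun and Egr3 varied little, which keeps their difference small although control replicate 3 was the highest control library for Jun and not for Egr3.

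**Figure D3:**
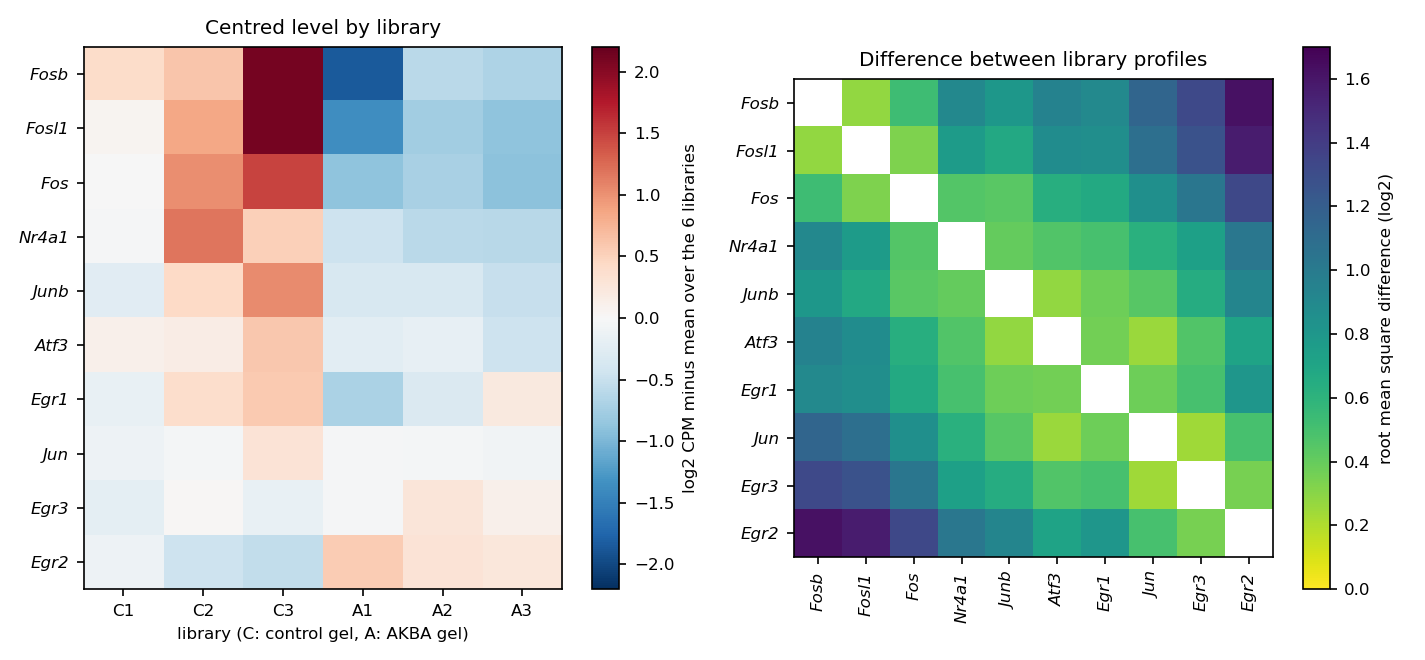
Left, log2 CPM of each gene in each library minus its mean over the 6 libraries (C, control gel; A, AKBA gel; replicates 1 to 3). Right, root mean square difference between these profiles for each pair of genes, from 0.25 for Jun and Egr3 to 1.62 for Fosb and Egr2. Fosb, Fosl1 and Fos are high in control replicate 3 and low in the AKBA libraries, and Egr2 shows the opposite pattern.

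Levels of different genes were compared per length, with the FPKM values the authors deposited (fragments per kilobase of transcript, scaled to library depth). In the control group Junb was the highest of the 10 at 107 ± 40.1 FPKM, followed by Egr3 (45.4 ± 5.96) and Jun (36.1 ± 3.42), and these 3 did not overlap with their neighbours in the order. Below them came Egr1 (16.5 ± 3.50), Fos (15.6 ± 6.56), Egr2 (11.0 ± 2.29), Nr4a1 (9.07 ± 4.10), Fosl1 (7.76 ± 5.04) and Atf3 (3.83 ± 0.474), and each overlapped with its neighbours in this run. Fosb was lowest at 0.69 ± 0.443 FPKM (SD, n = 3), below every library of Atf3. With AKBA gel Junb (59.0 ± 1.001 FPKM) overlapped with Egr3 (54.4 ± 6.02 FPKM). The order below them was Jun, Egr2, Egr1, Fos, Nr4a1, Atf3, Fosl1 and Fosb, from 34.3 ± 0.99 FPKM for Jun to 0.147 ± 0.0666 FPKM for Fosb (SD, n = 3), with no overlap between neighbours.

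Within the FOS family the make-up differed between the groups. Fosl2, which encodes the FRA-2 protein and is no member of the 10, stood at 236 ± 8.51 CPM after AKBA gel, beside 241 ± 2.94 CPM in controls (SD, n = 3 each, log2 fold change -0.03 ± 0.11, edgeR adjusted p = 0.926). The summed FPKM of the 4 FOS genes was 29.9, 30.1 and 33.5 with AKBA gel, below the 38.1, 49.8 and 58.3 of the controls. Fosl2 therefore made up 81.0%, 76.5% and 79.6% of FOS family transcript with AKBA gel, and 67.5%, 51.6% and 38.6% with control gel. Fos made up 14.6%, 16.5% and 14.1% with AKBA gel and 22.0%, 34.7% and 36.4% with control gel. Fosl1 made up 4.15% to 6.44% against 9.43% to 22.9%. All 3 shares were apart between the groups, but they are parts of 1 sum and are not independent of one another or of the levels above. In the JUN family Junb made up 38.6% to 42.3% with AKBA gel and 46.2% to 62.0% with control gel, also without overlap. The rest was Jun and Jund, the JUN gene that is expressed without a stimulus in most cells. Jund itself was at 147 ± 31.3 against 137 ± 17.5 CPM (SD, n = 3 each). In the EGR family Egr3 made up 59.4% to 67.7% in all 6 libraries, and in the NR4A family Nr4a1 made up 70.1% to 83.1%.

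**Figure D4:**
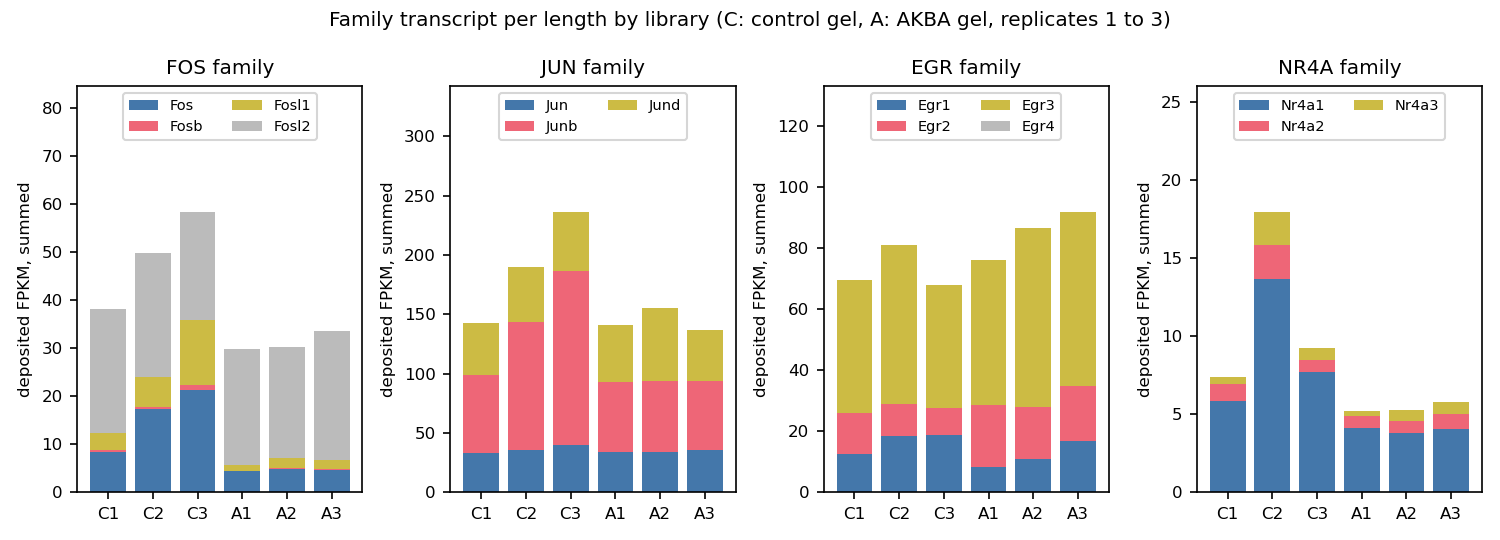
Deposited FPKM values of the FOS, JUN, EGR and NR4A genes stacked by library (C, control gel; A, AKBA gel; replicates 1 to 3), on linear axes from 0. The Fosl2 part is similar in all libraries while the Fos and Fosl1 parts are taller in the control libraries. The FOS sum reaches 58.3 FPKM in control replicate 3 and at most 33.5 FPKM in an AKBA library.

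The genes around AP-1 were read from lists chosen with earlier results of these data known, and no list gene passed the main test. Of 17 other AP-1 subunits tested, 2 were lower in every AKBA library (Atf6 and Mafg, both named after their values were seen) and none higher, near the shares of 9.1% lower and 9.28% higher over all genes tested. Their median log2 fold change was -0.14, beside 0.00 for all genes tested and -0.76 for the 10 genes. Among the most abundant of them were Fosl2, Maf (210 ± 23.03 against 234 ± 10.8 CPM) and Atf4, a translation-controlled stress factor (145 ± 15.6 against 203 ± 45.8 CPM, SD, n = 3 each), and these 3 overlapped between the groups.

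Of 34 other immediate early genes tested, 7 were lower in every AKBA library and 1 higher, against the same shares of 9.1% and 9.28%, with a median of -0.12. The most abundant, the differentiation factor Klf4 (443 ± 79.6 against 587 ± 192 CPM), Mcl1 (265 ± 19.2 against 265 ± 12.6 CPM), Btg1 (250 ± 30.6 against 216 ± 23.9 CPM) and Zfp36l2 (235 ± 12.5 against 236 ± 24.6 CPM), overlapped between the groups (SD, n = 3 each). Arc and Ptgs2, named after their values were seen, were lower in every AKBA library and differed widely among the controls. Ptgs2, the inducible prostaglandin synthase COX-2, stood at 0.687, 1.12 and 1.02 CPM with AKBA gel and at 1.14, 14.5 and 7.33 CPM with control gel. Control replicate 1 was hardly above the AKBA libraries. Arc, a gene best known from neurons, stood at 3.24, 3.61 and 7.24 CPM with AKBA gel and at 9.999, 16.6 and 75.5 CPM with control gel.

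Of 31 upstream genes tested, which encode SRF with its partners, MAP kinases and CREB factors, 7 were lower in every AKBA library and 1 higher, against 9.1% and 9.28% of all genes. The median was -0.05. The kinase genes Mapk14 (177 ± 12.0 against 198 ± 28.7 CPM, SD, n = 3 each), Mapk13 and Map2k4 overlapped between the groups. Elk3 (log2 fold change -0.78 ± 0.20) and Crem (-0.71 ± 0.18) were among the 7 lower genes, each with an edgeR adjusted p of 0.331. The higher one was Araf (0.26 ± 0.10, edgeR adjusted p = 0.35). These 3 were named after their values were seen. Of 16 feedback regulators, which are phosphatases and inhibitors that end the signal, 1 was lower in every AKBA library and 1 higher, no more than the 9.1% and 9.28% of all genes, with a median of -0.09. The lower one was the phosphatase gene Dusp7 (130 ± 10.6 against 211 ± 72.0 CPM, SD, n = 3 each). Its log2 fold change was -0.70 ± 0.23, with an edgeR adjusted p of 0.339. The higher one was Dusp16, named after its values were seen. Nab1, a corepressor of EGR proteins, was at 98.4 ± 5.64 against 98.1 ± 7.63 CPM. At an unadjusted p below 0.05 the main test gave 3 of the 16 feedback regulators as lower and 0 as higher. Of all genes tested it gave 7.01% as lower and 6.45% as higher.

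Of 20 genes known as AP-1 targets in skin or other tissues, 9 were lower in every AKBA library and none higher, against 9.1% and 9.28% of all genes, with a median of -0.56. In Sprr1b, a cornified envelope gene, the means were 196 ± 79.0 and 994 ± 630 CPM (log2 fold change -2.35 ± 0.51, edgeR adjusted p = 0.331). Sprr1a was at 290 ± 84.4 against 993 ± 809 CPM with overlap. The envelope gene Lor went the other way, from 1803 ± 448 CPM in controls to 4362 ± 2320 CPM, with a log2 fold change of 1.27 ± 0.42 (adjusted p = 0.336 by edgeR). Lor overlapped between the groups, as did Krt1. Hbegf, an EGF receptor ligand named after its values were seen, stood at 12.2, 7.76 and 12.8 CPM with AKBA gel and at 21.6, 40.8 and 109 CPM with control gel. Control replicate 3 was again the highest.

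**Figure D5:**
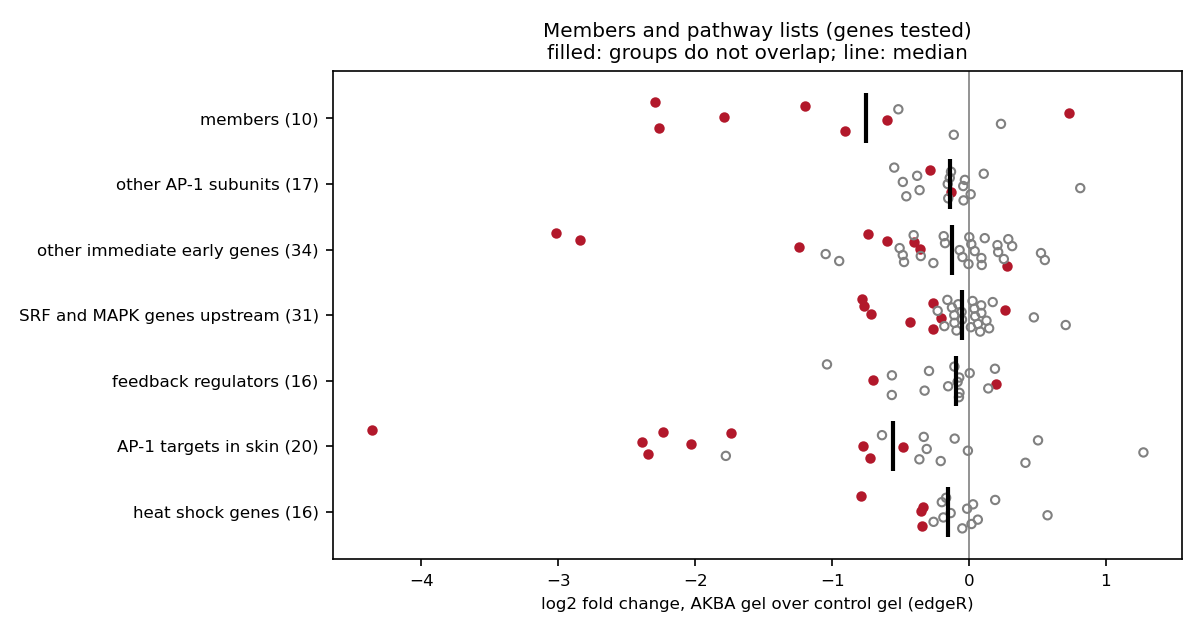
Log2 fold changes by edgeR (horizontal axis, AKBA gel over control gel) of the 10 genes and of 6 lists of genes around them, with the number tested in brackets. Filled points are genes whose 3 AKBA libraries all lie on 1 side of the 3 control libraries, and black lines are medians, -0.76 for the 10 genes and -0.56 for the AP-1 targets.

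Start regions are shown for 4 genes with different patterns: Fos and Nr4a1, lower with AKBA gel, Egr2, higher, and Jun, which overlapped. They come from RefSeq on GRCm38.p6, where 7 of the 10 genes had an entry. Each is the 250 bases before the start, 5′ to 3′ on the gene's strand, and for Egr2, which has 5 entries, the one at the start of the GENCODE M21 principal transcript. The Nr4a1 region too lies before the start of a principal transcript, inside the span of the whole gene given above. Capitals mark every match, on either strand, to the AP-1 motif TGANTCA, the CREB motif TGACGTCA, its core TGACG, the SRF motif known as the CArG box, the EGR motif GCGNGGGCG or TATAAA. The core is part of the CREB motif and was added after the regions had been read.
Fos, chr12:85473640-85473889, plus strand: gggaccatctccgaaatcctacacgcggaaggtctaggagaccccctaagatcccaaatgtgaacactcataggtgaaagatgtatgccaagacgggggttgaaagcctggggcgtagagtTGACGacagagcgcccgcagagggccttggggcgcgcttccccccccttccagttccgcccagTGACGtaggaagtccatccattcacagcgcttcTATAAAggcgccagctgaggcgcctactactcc
Nr4a1, chr15:101266596-101266845, plus strand: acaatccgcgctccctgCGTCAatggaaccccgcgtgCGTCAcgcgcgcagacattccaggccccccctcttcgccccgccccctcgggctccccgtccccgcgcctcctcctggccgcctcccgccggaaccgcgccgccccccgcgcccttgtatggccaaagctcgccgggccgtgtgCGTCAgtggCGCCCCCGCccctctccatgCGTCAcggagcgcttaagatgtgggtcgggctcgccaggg
Egr2, chr10:67537619-67537868, plus strand: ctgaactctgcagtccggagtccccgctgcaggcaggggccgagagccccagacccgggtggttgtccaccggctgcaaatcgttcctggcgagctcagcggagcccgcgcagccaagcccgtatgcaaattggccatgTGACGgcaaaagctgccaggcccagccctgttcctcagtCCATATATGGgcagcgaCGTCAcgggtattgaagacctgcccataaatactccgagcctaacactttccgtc
Jun, chr4:95052223-95052472, minus strand: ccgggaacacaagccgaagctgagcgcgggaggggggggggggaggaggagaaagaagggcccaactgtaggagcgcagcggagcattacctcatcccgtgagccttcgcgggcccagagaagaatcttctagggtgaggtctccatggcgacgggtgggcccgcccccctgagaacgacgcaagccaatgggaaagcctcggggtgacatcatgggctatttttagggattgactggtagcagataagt

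TGACG, added after the regions had been read, was present in 6 of the 7 regions, all but that of Jun. It was present in 17.8% of the 32851 windows of the same length in the table. The 7 regions held 58.4% to 74.4% G and C, and the windows were not matched for this, so the 2 shares cannot be read as an enrichment. Nr4a1 had 4 matches to TGACG, Fos and Egr2 had 2 each, and Fosb, Junb and Atf3 had 1 each. Within these short regions Egr2 alone of the 7 had a CArG box, at -72 to -63 from the start, against 1.47% of all windows. Sequence farther upstream was not scanned, nor were the genes without an entry. A gene without a match here may therefore still have a CArG box elsewhere. The EGR motif was present in Fosb and Nr4a1 (4.7% of all windows) and TATAAA in Fos, at -33 to -28 (12.4% of all windows). TGANTCA (6.75% of all windows) and the whole TGACGTCA (1.55%) were in none of the 7 regions. A match is a run of letters in this window and not a measured binding site.

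The 10 genes were short, as many immediate early genes are. Their median span in the annotation was 6063 bases, beside 24199 bases for the 14337 protein-coding genes tested that have a 3′ untranslated region of at least 50 bases, and 9 of the 10 were shorter than that median. Atf3, the longest, spans 47744 bases. The pentamer ATTTA, part of the AU-rich elements that mark a transcript for fast decay, occurred in the 3′ untranslated region of all 10. Its density was 2.59 per kilobase at the median of the 10 and 1.24 at the median of those 14337 genes. Nr4a1 (5.52), Fos (4.91) and Junb (4.12) had the highest densities, and Fosb (0.466) and Fosl1 (1.57) the lowest. Only 34.7% of those 14337 genes had a lower density than Fosb, so most of them carry ATTTA as well. The longer motif TTATTTATT occurred in Fos alone of the 10, and in 7.34% of those 14337 genes.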

How the data were processed

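Counts of 6 mouse epidermis libraries were used, 3 with AKBA gel and 3 with control gel, grouped by their titles. Per the labels' protocols, Dispase II separated epidermis from dermis, TRIzol extracted RNA and a TruSeq kit made the libraries. The authors deposited 1 table with whole-number counts and FPKM values per gene and library, and their own log2 fold change, p-value and adjusted p-value for each gene. The submitters' processing notes name GRCm38, edgeR, RSEM and CASAVA 1.8, and the step each tool ran, the annotation release and the strand setting are not stated in the sources used here.

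The whole count table was fitted with edgeR 4.0.16 in R 4.3.3: scaling by TMM, filterByExpr with its default settings (17023 genes), the 2-sided quasi-likelihood F test and Benjamini-Hochberg adjustment over all genes, with a threshold of 0.05. A standard error is the size of the log2 fold change over the square root of F. CPM are counts over TMM-scaled library sizes, and profiles used log2 CPM with a prior count of 2. DESeq2 1.42.0 (Wald test) was an alternative. The fit was tested on counts drawn for the same genes with 200 changed. No library repeated another: the chi-square of counts between 2 libraries of a group was at least 28.3 times its degrees of freedom.

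The 10 genes and all lists were chosen with earlier results of these data known, so no p-value is adjusted over a list. Of each list the text names up to 4 genes, those past the threshold or else those with the highest CPM, besides the paralogs of the 10, up to 2 nearest profiles per gene and genes said to be named after their values were seen. Some genes this rule names are not reported here. Positions are from GENCODE M21. The comparison of protein sequences that had been planned was not made.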

Additional observations from a re-analysis of the deposited data

How the results depend on the processing

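By edgeR's quasi-likelihood test 0 genes and 0 of the 10 genes were called (2291 genes and 7 of the 10 at an unadjusted p below 0.05). With DESeq2 the counts were 292 and 5, with 203 lower and 89 higher, and with edgeR's exact test, added after seeing the data, 221 and 5. Leaving out 1 library gave 0 to 14 genes and 0 to 1 of the 10 by edgeR. The 14 genes, Fos among them (adjusted p = 0.0376), were called without control replicate 1. The same by DESeq2, also added after seeing the data, gave 34 to 1123 genes and 2 to 6 of the 10. Without control replicate 1 DESeq2 called 6 of the 10, without control replicate 2 it called 3, and with either of AKBA replicates 1 and 2 or control replicate 3 missing it called 2, Fos and Fosl1. On the 4 libraries without both AKBA replicate 2 and control replicate 3, DESeq2 called 31 genes and 1 of the 10. The median log2 fold change of the 10 was -0.76 and ranged from -0.93 to -0.48 with 1 library left out. Jun, at -0.11 with all libraries, ranged from -0.19 to 0.03 with 1 library left out, above 0 only without control replicate 3 (0.0271), and was 0.0214 on those 4 libraries. The other 9 genes had the same direction in every edgeR setting that tested them. The stricter filter of 5 CPM in 3 libraries left Fosb untested.

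Correlations of deviations between AKBA and control libraries of the same replicate number were 0.07, 0.02 and -0.33 for numbers 1 to 3. They show no pairing by number, but with deviations centred over 3 libraries a group they cannot exclude one. With the replicate number as a block edgeR called 0 genes and 0 of the 10, with a median of -0.70. At an unadjusted p below 0.05 the block gave 1857 genes and 8 of the 10, beside 2291 and 7 without it. The scaling of DESeq2 within edgeR and the absence of a filter called 0 genes too. The levels per length moved by less than the SD when CPM per kilobase after TMM scaling replaced FPKM. Depth limits Fosb most, with 9 counts in its lowest library.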

Other observations

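Heat shock and chaperone genes, which also respond to stress of a tissue, were listed beside the immediate early genes. Of 16 tested, 4 were lower in every AKBA library and none higher, against 9.1% and 9.28% of all genes tested. Their median log2 fold change was -0.15, with 0 past the threshold of edgeR (2 at an unadjusted p below 0.05). Hspa5, the chaperone BiP of the endoplasmic reticulum, was at 278.6, 259.9 and 279.5 CPM with AKBA gel and at 346.5, 500.4 and 564.7 CPM with control gel (log2 fold change -0.79 ± 0.19, edgeR adjusted p = 0.331). The cytosolic chaperone gene Hspa8 was lower in every AKBA library as well, at 1130 ± 70.1 against 1428 ± 191 CPM (SD, n = 3 each). Hsp90ab1 (1432 ± 25.2 against 1402 ± 8.89 CPM) and the small heat shock gene Hspb1 (370.2 ± 102.0 against 249 ± 63.4 CPM) overlapped between the groups.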
